A study of Danio rerio with 4 samples.

Results

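The voltage-gated and potassium channel genes encode the pores and accessory subunits through which sodium, calcium and potassium ions cross the membranes of nerve, muscle, sensory and epithelial cells. They were chosen by symbol alone, ignoring case. A gene was taken if its symbol started with scn and a digit, with cacna, cacnb or cacng, or with kcn and a further letter. The rule used no measured value, but the members were chosen with earlier results of these data known. It found 183 of the 27472 genes in the deposited table, of which 14 belong to sodium, 51 to calcium and 118 to potassium channels. RNA came from zebrafish (Danio rerio) of the AB strain at 72 hours post fertilization (hpf), and the labels name no tissue. The control group, with 2 libraries numbered 1 and 3, had received the solvent dimethyl sulfoxide (DMSO), and the exposed group, with 2 libraries numbered likewise, had received 4 µM bisphenol C (BPC). Exposure started at 4 hpf in both groups. The sources used here do not say how many animals or clutches went into a library, and the spread between libraries that the p-values measure may therefore be technical.

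Voltage-gated sodium channels start and carry action potentials, voltage-gated calcium channels turn depolarization into calcium entry at synapses and in muscle, and potassium channels bring the membrane back to rest and set its resting level. Their pores are helped by accessory subunits that move them to the surface, hold them in place or change how fast they open and close. Zebrafish carry many of these genes as a pair of copies marked a and b, and different members serve brain, retina, muscle, heart and the ion-transporting cells of the skin and kidney.

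Of the 145 channel genes tested, 65 were lower in BPC and 1, the potassium channel gene kcnk6, was higher, by limma on log2(FPKM + 1) at an adjusted p under 0.05. Over all 19873 genes tested, 17.5% were lower and 7.06% higher, 24.6% in all. FPKM counts fragments per kilobase of transcript relative to the size of the library, and a gene entered the test if 2 or more libraries reached 0.5 FPKM. The summed level of the 183 genes was 456 and 454 FPKM in the DMSO libraries and 271 and 283 in the BPC libraries, 60.9% of the DMSO mean. In bulk RNA, fewer cells of a type and less RNA per cell cannot be told apart.

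The filter itself favours genes that are high in one group. Of the 145 genes, 21 passed it only through the DMSO libraries, and 15 of these were among the 65, including CACNA2D3 (1 of many), cacna2d4a (ENSDARG00000026855), cacna2d4b, cacng5a, cacng7b, cacna1db (ENSDARG00000115603), kcnh5b, kcnk15, kcnj1a.3, kcna1b, kcnq2a, kcnn1b, kcnv2a and scn12aa. None of the 15 could be tested without either DMSO library. Over all 19873 genes tested, 828 passed the filter only through the DMSO libraries. Without the filter, 42 of the 183 genes were lower, against 7.50% of all genes. Both BPC libraries lay below both DMSO libraries in 131 of the 183 and above them in 6, against 39.5% and 19.0% of all genes in the table. Among tested genes alone those numbers were 110 and 6 of 145, with a background of 45.1% and 23.0%. Of the 145, 51 (35.2%) were called lower with a mean FPKM at least 2-fold lower in BPC, against 9.26% of all tested genes.

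The median log2 change of the tested channel genes was -0.47, and that of all tested genes was -0.12. All genes together summed to 355583 and 355364 FPKM in DMSO and to 422245 and 425611 in BPC, and scaling moved both medians. The medians of all genes were -0.31 after conversion to TPM, 0.02 after quantile normalization and 0.04 after median centring, and the channel median lay 0.31, 0.28 and 0.35 below them in turn. The sodium, calcium and potassium medians stayed below 0 under each scaling. Channel genes were low in level, with a median of 1.48 FPKM against 4.19 for all tested genes, and the share of lower calls was compared within ranges of level. Between 1 and 2 FPKM, 26 of 52 channel genes were lower (50.0%, against 21.1% of all genes in that range). Between 5 and 20 FPKM, 9 of 18 were lower (50.0% against 15.0%).

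**Figure D1:**
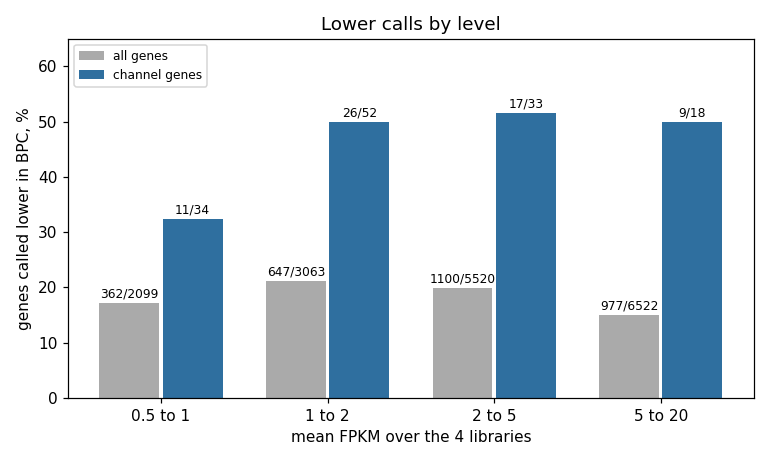
Bars give the percentage of tested genes that were lower in BPC (y axis) within 4 ranges of mean FPKM over the 4 libraries (x axis), for all genes in grey and channel genes in blue, with the numbers of lower and tested genes above each bar. The blue bar is taller in each range, with 32.4% against 17.2% between 0.5 and 1 FPKM and 51.5% against 19.9% between 2 and 5 FPKM.

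By class, sodium channel genes were lower in 8 of 11 tested (median log2 change -0.72), calcium channel genes in 28 of 43 (-0.64) and potassium channel genes in 29 of 91 (-0.38). The pores that open on depolarization, from Nav, Cav, Kv1 to Kv4, Kv7 and EAG-type genes, were lower in 31 of 51. The inward rectifiers (Kir) and leak channels (K2P), which do not depend on a voltage sensor, were lower in 6 of 33, which at 18.2% is near the 17.5% of all genes. Differences between families were not tested. Unless another setting is named, counts of lower genes by family, form or marker list below are to be read against this 17.5%. Counts of higher genes are to be read against 7.06%. For counts at an unadjusted p under 0.05 by limma the background is 5528 lower and 2423 higher of all 19873 genes. The form, partner and marker lists were chosen with earlier results of these data known.

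**Figure D2:**
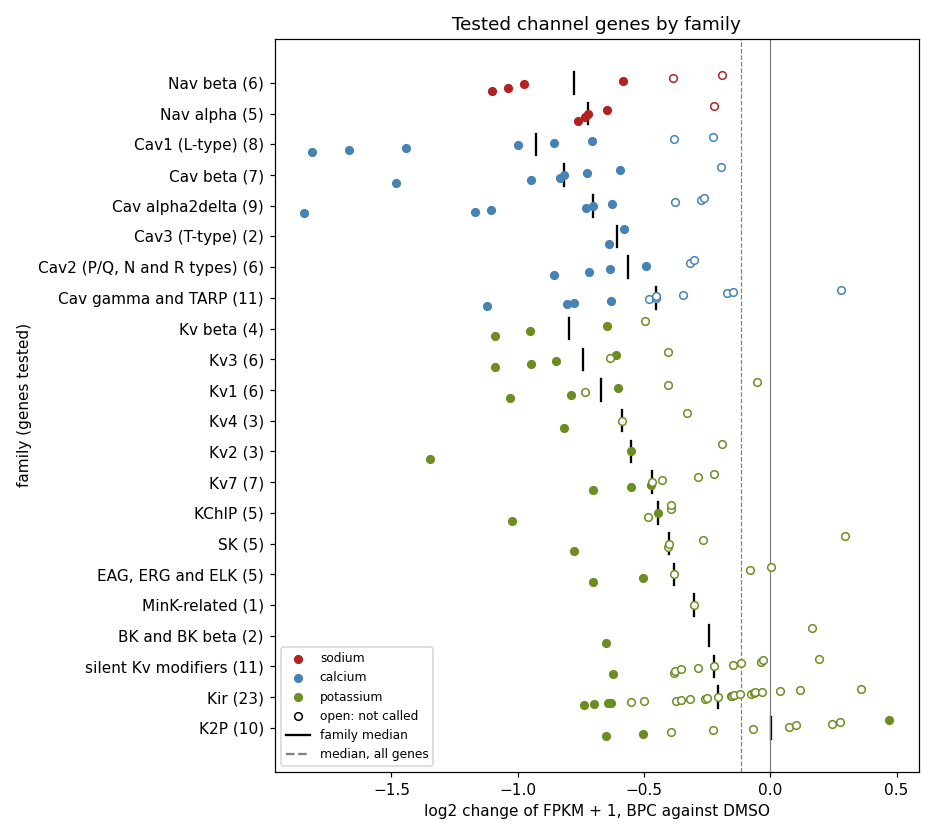
Each point is a tested channel gene, placed by its log2 change of FPKM + 1 between BPC and DMSO (x axis) in its family (y axis, number of tested genes in brackets). Filled points passed the adjusted threshold, black bars are family medians and the dashed line is the median of all genes, -0.12. Sodium (red) and calcium (blue) families lie to the left, while the K2P median is at 0.00.

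Single calls rest on 2 libraries a group and were sensitive to the control libraries. Without DMSO replicate 1 the median log2 change was -0.41 for channel genes and -0.11 for all genes. Without DMSO replicate 3 these medians were -0.42 and -0.09. Leaving out DMSO replicate 1 or DMSO replicate 3 left 16 lower channel genes of 123 tested in each case. Over all genes these fits gave 675 and 892 lower genes, against 3480 with all libraries. Of the 65, 13 were tested and lower under all 12 alternatives: cacna1fa, cacna1fb, cacna1da, cacna2d4a (ENSDARG00000103810), cacnb2b, cacnb3a, scn1bb, scn2b, scn4ba, kcnb2, kcnc3a, kcnab1b and kcnab2b. With every library kept, 32 of the 65 lost their call under at least 1 alternative, 30 of them after quantile normalization, 23 with no filter and 20 after median centring. These 32 included CACNA2D3 (1 of many), both tested cacna1db genes, cacna1ab, cacna1ba, cacna1ea, cacna1g, cacna1ha, cacna2d2a, cacna2d2b, cacnb2a, cacnb4a, cacng3b, cacng7b, kcna4, kcnab1a, kcnc1a, kcnc2, kcnh5b, kcnh7, kcnip1b, kcnj10a, kcnj13, kcnj1a.3, kcnj3b, kcnk10a, kcnk15, kcnq2a, kcnq3, kcnv2a and scn12aa. In turn, 29 further channel genes passed as lower after conversion to TPM, where 37.5% of all genes were lower, against 17.5% in the main fit.

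On the log2(FPKM + 1) scale the 3 largest falls were in channel genes of photoreceptors. This order depends on the pseudocount. With 0.1 FPKM cacna1db (ENSDARG00000115603), listed at 0 in 1 BPC library, ranked above both cacna1f genes, and with 0.01 FPKM above cacna2d4b too. With 0.01 FPKM cacng5a (-3.40) also ranked above cacna1fb (-3.28) and cacna1fa (-3.03). Photoreceptors release transmitter through an L-type calcium channel whose pore is encoded by cacna1fa and cacna1fb, with the alpha2delta subunit encoded by cacna2d4 genes. The pore gene cacna1fa was at 4.33 and 4.49 FPKM in the DMSO libraries and at 0.428 and 0.660 in the BPC libraries. Its copy cacna1fb was at 3.09 and 3.58 FPKM against 0.202 and 0.545. In both copies the BPC values lay far below the DMSO values, and the groups did not overlap. The log2 change was -1.81 (SE 0.14, adjusted p = 0.00169) for cacna1fa and -1.67 (SE 0.17, adjusted p = 0.00281) for cacna1fb.

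The alpha2delta gene cacna2d4b was at 3.26 and 2.95 FPKM in DMSO, against 0.102 and 0.181 in BPC. On the log2(FPKM + 1) scale this was the largest fall among the channel genes tested (log2 change -1.85, SE 0.13, adjusted p = 0.00139 by limma). Both genes with the symbol cacna2d4a fell as well, ENSDARG00000103810 from 2.03 and 2.34 FPKM to 0.410 and 0.548 (adjusted p = 0.00491) and ENSDARG00000026855 from 1.79 and 2.07 to 0.207 and 0.400 (adjusted p = 0.00478). How reads were split between them is not known. The cacna2d4b and ENSDARG00000026855 genes passed the filter only through DMSO.

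The other retina forms were kcnv2a, kcnv2b and kcnj13. The gene kcnv2a, for a silent potassium subunit that shapes the photoreceptor's current in mammals, was at 1.08 and 0.941 FPKM in DMSO, against 0.212 and 0.404 in BPC (log2 change -0.62, adjusted p = 0.0259). It passed the filter only through DMSO and lost its call without BPC replicate 1 (adjusted p = 0.0745), after quantile normalization (0.109) and after median centring (0.0634). Its copy kcnv2b did not pass (adjusted p = 0.716), with 0.769 and 0.544 FPKM in DMSO, 0.116 in BPC replicate 1 and 0.992, the highest of the 4, in BPC replicate 3. The inward rectifier gene kcnj13, used by the retinal pigment epithelium and, in zebrafish, in pigment pattern, fell from 2.78 and 2.18 FPKM to 1.23 and 1.05 (adjusted p = 0.0208). It no longer passed with no filter (0.0585), after quantile normalization (0.0723), or when DMSO replicate 1 (0.161) or 3 (0.0582) was left out. The 4 pigment cell markers all rose, against 7.06% of all genes. They summed to 50.4 and 56.0 FPKM in DMSO and 167 and 133 in BPC.

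In all, 7 of 8 retina forms fell, against 17.5% of all genes. Of these forms, 3 passed the filter only through DMSO: cacna2d4b, kcnv2a and 1 of the cacna2d4a genes. The retina forms summed to 19.1 and 19.1 FPKM in DMSO and 2.91 and 4.78 in BPC. Photoreceptor markers moved with them, and 7 of the 8 listed fell, against 17.5% of all genes. The summed level of the 8 was 504 and 442 FPKM in DMSO and 26.0 and 67.4 in BPC, 9.87% of the DMSO mean. The marker that did not pass, crx, was at 42.4 and 42.1 FPKM in DMSO and 15.5 and 38.1 in BPC (adjusted p = 0.163 by limma). It made up most of the marker sum in BPC. The cone arrestin arr3a was at 185 and 173 FPKM against 3.84 and 12.2, and the cone transducin subunit gnat2 at 84.1 and 66.3 against 0.357 and 1.42. The disc gene prph2a was listed at 0 in 1 BPC library and passed the filter only through DMSO. The 4 listed bipolar and amacrine markers held 0 calls by limma (0 also at an unadjusted p under 0.05 in either direction). They summed to 134 and 142 FPKM in DMSO and 119 and 140 in BPC. Of these, tfap2a gave 60.4 and 62.6 FPKM in DMSO and 56.9 and 58.2 in BPC. With no tissue named, their RNA cannot be assigned to the retina. The part of the photoreceptor markers in the channel result was not tested.

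**Figure D3:**
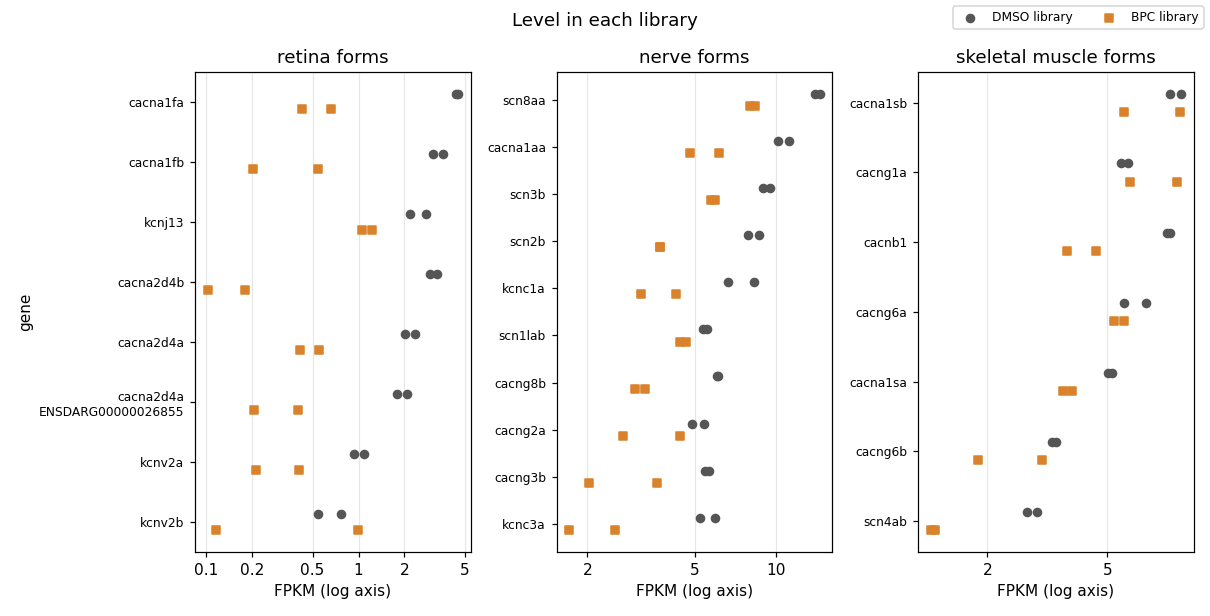
Points give the level of a gene (y axis) in each library in FPKM on a log axis (x axis), grey circles for DMSO and orange squares for BPC, for the 8 retina forms and the nerve and skeletal muscle forms of highest mean level that were tested. In the retina panel the groups lie apart for every gene except kcnv2b. In the muscle panel cacna1sb overlaps and cacng1a lies higher in BPC.

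Of 11 sodium channel genes tested 8 fell, 4 of 5 pores and 4 of 6 beta subunits, against 17.5% of all genes. The gene of highest level among the pores was scn8aa, whose mammalian counterpart carries the current of nodes and axon initial segments. It was at 14.0 and 14.5 FPKM in DMSO, against 7.99 and 8.34 in BPC, with no overlap (14.2 ± 0.354 against 8.17 ± 0.248, SD, n = 2; log2 change -0.73, SE 0.11, adjusted p = 0.00700 by limma). Its copy scn8ab was at 4.09 and 3.94 FPKM against 1.68 and 2.26 (log2 change -0.76, adjusted p = 0.0152). The brain pore gene scn1lab was at 5.35 and 5.53 FPKM against 4.64 and 4.40 and did not pass (log2 change -0.22, 95% interval -0.51 to 0.06, adjusted p = 0.206). Its copy scn1laa, at 0.400 and 0.469 FPKM against 0.151 and 0.184, was under the filter.

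The beta subunits are single-pass proteins that hold the pore in the membrane and bind neighbouring cells. The gene scn1bb had the second highest mean level of all channel genes, with 16.6 and 16.9 FPKM in DMSO and 6.49 and 8.96 in BPC (log2 change -1.04, SE 0.15, adjusted p = 0.00753). The genes scn2b and scn4ba were at 7.90 and 8.63 FPKM against 3.70 and 3.71, and at 4.92 and 4.01 against 1.65 and 1.42 (adjusted p = 0.00441 and 0.00556). In scn3b the levels were 8.96 and 9.52 FPKM in DMSO and 5.73 and 5.94 in BPC (adjusted p = 0.0154). In these 4 genes both BPC libraries lay below both DMSO libraries, against 45.1% of all tested genes. Neither scn1ba (adjusted p = 0.0574, or 0.0416 without BPC replicate 1) nor scn4bb (0.420) passed. Without DMSO replicate 1 and DMSO replicate 3 in turn, the calls were lost for scn8aa (adjusted p = 0.0565 and 0.0588), scn8ab (0.0970 and 0.0721) and scn3b (0.101 and 0.127).

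Of the 6 Cav2 genes, for the calcium channels that trigger transmitter release, 4 fell. The P/Q-type pore gene cacna1aa was at 10.18 and 11.2 FPKM in DMSO, against 4.80 and 6.14 in BPC (10.7 ± 0.703 against 5.47 ± 0.943, SD, n = 2; adjusted p = 0.00993 for a log2 change of -0.86, SE 0.14). Its copy cacna1ab fell from 2.51 and 2.76 FPKM to 1.02 and 1.41 (adjusted p = 0.0189). Among N-type genes, cacna1ba fell from 2.78 and 3.14 FPKM to 1.63 and 2.01 (adjusted p = 0.0491), while cacna1bb was at 1.87 and 1.84 against 1.104 and 1.48 and did not pass (0.150). Among R-type genes, cacna1ea fell from 1.88 and 1.76 FPKM to 0.721 and 0.914 (adjusted p = 0.0212), and cacna1eb did not pass (0.167). In all 6 of these Cav2 genes both BPC libraries lay below both DMSO libraries, against 45.1% of all tested genes.

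The T-type genes, which open near rest and support rhythmic firing, fell in both cases tested. The gene cacna1g was at 3.08 and 2.59 FPKM against 1.18 and 1.78 (adjusted p = 0.0379), and cacna1ha at 1.48 and 1.40 against 0.519 and 0.754 (0.0303). The other T-type genes, cacna1hb and cacna1i, were under 0.5 FPKM in every library. Several calls of these pore genes were close to the threshold. Without DMSO replicate 3 the call of cacna1aa was lost (adjusted p = 0.0592), and without DMSO replicate 1 or DMSO replicate 3 that of cacna1ab (0.0908 and 0.114). The calls of cacna1ba (adjusted p = 0.106 to 0.275), cacna1ea (0.0515 to 0.148), cacna1g (0.0862 to 0.213) and cacna1ha (0.0785 to 0.189) were lost when BPC replicate 1 or either DMSO library was left out. After quantile normalization cacna1ab (0.0587), cacna1ba (0.196), cacna1ea (0.0839), cacna1g (0.122) and cacna1ha (0.130) did not pass.

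Beta subunits carry calcium channels to the surface, and 6 of their 7 genes fell. The gene cacnb2b was at 4.18 and 4.19 FPKM in DMSO, against 0.519 and 1.28 in BPC (log2 change -1.48, SE 0.21, adjusted p = 0.00625). The copies cacnb3a and cacnb3b fell to 0.409 and 0.5004 FPKM from 1.68 and 1.93, and to 0.812 and 0.834 from 2.12 and 2.38 (adjusted p = 0.00675 and 0.00877). The beta gene of highest level, cacnb4b, was also the highest of all channel genes, and at 19.2 and 19.9 FPKM in DMSO and 15.7 and 18.2 in BPC it did not pass (log2 change -0.20, 95% interval -0.47 to 0.08, adjusted p = 0.246). Its copy cacnb4a fell from 2.16 and 1.82 FPKM to 0.942 and 0.682 (adjusted p = 0.0181). Without DMSO replicate 1 and DMSO replicate 3 in turn the calls were lost for cacnb3b (adjusted p = 0.0538 and 0.0678) and cacnb4a (0.133 and 0.0678).

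Of 9 alpha2delta genes 6 fell, including the 3 retinal cacna2d4 genes above, cacna2d2a, cacna2d2b and a gene listed as CACNA2D3 (1 of many), which passed the filter only through DMSO. The call of cacna2d2a was lost without BPC replicate 1 (adjusted p = 0.0912) and without DMSO replicate 1 (0.225), and that of cacna2d2b when DMSO replicate 1 (0.220), DMSO replicate 3 (0.0698) or BPC replicate 1 (0.0756) was left out. The alpha2delta gene of highest level, cacna2d1a, was at 7.84 and 7.71 FPKM in DMSO, 8.23 in BPC replicate 1 and 4.81 in BPC replicate 3, so the groups overlapped (adjusted p = 0.407, or 0.0239 without BPC replicate 1). The gamma family holds both a muscle subunit and the TARPs, which carry AMPA-type glutamate receptors to synapses. Among the TARPs, cacng8b fell from 6.05 and 6.11 FPKM to 3.00 and 3.28 (log2 change -0.78, adjusted p = 0.00837) and cacng3b from 5.47 and 5.63 to 2.03 and 3.63 (-0.81, adjusted p = 0.0356). The TARP genes cacng2a (adjusted p = 0.135) and cacng8a (0.157) did not pass, but did without BPC replicate 3 (0.0141 and 0.0154). The gene cacng5a was at 1.81 and 1.14 FPKM in DMSO, against 0.120 and 0.134 in BPC (log2 change -1.12, adjusted p = 0.00767), and it passed the filter only through DMSO. Leaving out either DMSO library ended the calls of cacng8b (adjusted p = 0.0652 without replicate 1 and 0.0603 without replicate 3) and of cacng3b (0.117 in both cases).

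Among the L-type genes outside the retina, the falls were in the cacna1d genes and cacna1c. The neuroendocrine and hair cell pore gene cacna1da was at 4.11 and 4.79 FPKM in DMSO, against 1.62 and 1.82 in BPC (log2 change -1.001, SE 0.14, adjusted p = 0.00605). Of the 4 genes with the symbol cacna1db, ENSDARG00000115603 was at 2.34 and 2.24 FPKM in DMSO and was listed at 0 and at 0.464 in BPC, ENSDARG00000101589 fell from 2.19 and 1.68 to 0.408 and 0.856 (adjusted p = 0.0213), and the other 2 were not tested, 1 of which has another symbol in the reference table of names. ENSDARG00000115603 passed (adjusted p = 0.00619) but entered the test only through DMSO, was not tested without either DMSO library and did not pass with a pseudocount of 0.01 FPKM (0.0849). ENSDARG00000101589 did not pass with no filter (0.0621), after quantile normalization (0.0583), or when BPC replicate 1 (0.0520) or DMSO replicate 1 (0.125) or 3 (0.05005) was left out. How reads were split between genes of one symbol is not known.

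Of 7 skeletal muscle forms tested 2 fell (28.6%, against 17.5% of all genes). Their median log2 change was -0.35 over the 7, against -0.12 for all tested genes. The pores of the muscle L-type channel were not among the 2 that fell. Without BPC replicate 1 the count was 4, with the pore gene cacna1sb (adjusted p = 0.0395) and cacng6b (0.0354) added. The muscle L-type pore, which senses voltage for contraction, is encoded by cacna1sa and cacna1sb. The gene cacna1sb was at 8.77 and 8.08 FPKM in DMSO, 8.74 in BPC replicate 1 and 5.66 in BPC replicate 3, so the groups overlapped (log2 change -0.23, 95% interval -0.68 to 0.23, adjusted p = 0.414). The gene cacna1sa was at 5.19 and 5.01 FPKM against 3.81 and 3.57 and did not pass (log2 change -0.38, adjusted p = 0.0634), although it did after conversion to TPM (0.0119). The muscle gamma gene cacng1a had 5.56 and 5.86 FPKM in DMSO and 8.53 and 5.96 in BPC (log2 change 0.28, adjusted p = 0.266). It passed as higher without BPC replicate 3 (0.0267). The genes cacng6a (0.431) and cacng6b (0.212) did not pass.

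The 2 muscle forms that fell were the beta gene cacnb1 and the sodium pore gene scn4ab. The levels of cacnb1 were 7.90 and 8.09 FPKM in DMSO and 3.68 and 4.58 in BPC (log2 change -0.82, SE 0.13, adjusted p = 0.00977). Those of scn4ab were 2.93 and 2.71 FPKM against 1.34 and 1.298 (log2 change -0.72, SE 0.13, adjusted p = 0.0126). Both calls were lost without DMSO replicate 1 (adjusted p = 0.0607 for cacnb1 and 0.106 for scn4ab) and without DMSO replicate 3 (0.0579 and 0.0686). The copy scn4aa was under the filter, at 0.356 and 0.221 FPKM in DMSO and 0.0266 and 0 in BPC, and cacng1b was under it too, listed at 0 in both BPC libraries. The 7 skeletal muscle markers held 0 calls by limma (1 higher and 1 lower at an unadjusted p under 0.05), at 13426 and 11716 FPKM in DMSO and 14253 and 10767 in BPC.

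Heart forms were at low levels. The cardiac L-type pore gene cacna1c, also used in smooth muscle and nerve, fell from 3.78 and 3.61 FPKM to 1.77 and 1.99 (log2 change -0.71, SE 0.13, adjusted p = 0.0133). The sodium pore gene scn12aa fell from 0.833 and 0.647 FPKM to 0.101 and 0.121 (-0.65, adjusted p = 0.0194) and passed the filter only through DMSO. The ERG-type gene kcnh6a, which ends the cardiac action potential in zebrafish, was at 0.800 and 1.07 FPKM against 0.508 and 0.450 and did not pass (adjusted p = 0.0911). Nor did kcnq1.2 (0.127, or 0.0334 without BPC replicate 3), listed at 0 in BPC replicate 1, or kcnj2a (0.678), and kcnj2b, kcnq1.1 and scn5lab were not tested. The 5 heart markers summed to 38.6 and 46.4 FPKM in DMSO and 85.4 and 80.5 in BPC. Of these markers 3 rose, against 7.06% of all genes. The calls were lost for cacna1c without DMSO replicate 1 (adjusted p = 0.104) and DMSO replicate 3 (0.0749), and for scn12aa without BPC replicate 1 (0.0545) and after quantile normalization (0.108).

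Of the tested potassium channel genes kcnb2 had the largest fall on the log2(FPKM + 1) scale. With a pseudocount of 0.1 FPKM the fall of kcna1b was larger (-2.56 against -2.15 for kcnb2). By call, 4 of 6 Kv3 genes and 3 of 6 Kv1 genes fell. The delayed rectifier gene kcnb2 was at 3.26 and 3.12 FPKM in DMSO, against 0.554 and 0.743 in BPC (log2 change -1.35, SE 0.14, adjusted p = 0.00279). Kv3 channels close fast enough for rapid trains of spikes. The gene kcnc3a was at 5.94 and 5.24 FPKM against 1.71 and 2.53 (log2 change -1.09, SE 0.17, adjusted p = 0.00789). The copies kcnc1a and kcnc1b were at 6.64 and 8.27 against 3.15 and 4.25, and at 4.89 and 4.52 against 1.59 and 2.38 (adjusted p = 0.0163 and 0.0119). In all 6 Kv3 genes both BPC libraries lay below both DMSO libraries, against 45.1% of all tested genes. Neither kcnc3b (adjusted p = 0.109 by limma) nor kcnc4 (0.0906) passed. Without BPC replicate 3 their log2 changes were -0.94 and -0.54.

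The axonal Kv1 gene kcna1a was at 3.84 and 3.06 FPKM in DMSO, against 1.44 and 1.70 in BPC (log2 change -0.79, adjusted p = 0.0147). Its copy kcna1b was at 1.41 and 1.28 FPKM against 0.108 and 0.188 (-1.03, adjusted p = 0.00521) and passed the filter only through DMSO. The Kv1 gene of highest level, kcna7, was at 7.77 and 7.58 FPKM in DMSO, against 6.01 and 2.88 in BPC. The BPC libraries of kcna7 lay below the DMSO libraries but far apart, and it did not pass (log2 change -0.73, 95% interval -1.37 to -0.10, adjusted p = 0.0864). The pore gene kcna2b was at 1.93 and 2.01 FPKM against 1.304 and 1.19 (adjusted p = 0.0661). Among Kv4 genes, which carry the A-type current of dendrites, kcnd1 fell from 1.86 and 1.63 FPKM to 0.671 and 0.449 (adjusted p = 0.0122), and kcnd2 (0.276) and kcnd3 (0.0947, or 0.00931 without BPC replicate 3) did not pass. Leaving out DMSO replicate 1 ended the calls of kcna1a (adjusted p = 0.116), kcnc1b (0.0667) and kcnd1 (0.0928), and leaving out DMSO replicate 3 ended those of kcnc1a (0.0917) and kcnd1 (0.0540). The call of kcna7 was gained without BPC replicate 1 (0.00616).

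Cytoplasmic partners of these pores were also lower, in 3 of 4 Kv beta genes, whose products bind Kv1 pores, and in 2 of 5 KChIP genes. The gene kcnab2b was at 2.49 and 2.90 FPKM in DMSO, against 0.904 and 0.572 in BPC (log2 change -1.09, SE 0.16, adjusted p = 0.00672). The copies kcnab1a and kcnab1b fell from 1.70 and 1.49 FPKM to 0.714 and 0.602, and from 2.58 and 3.01 to 0.998 and 0.928 (adjusted p = 0.0197 and 0.00679), and kcnab2a did not pass (0.0536). KChIP genes encode calcium-binding subunits of Kv4 pores, and kcnip3a fell from 7.44 and 8.01 FPKM to 2.62 and 4.08 (log2 change -1.02, SE 0.18, adjusted p = 0.0120). The KChIP gene of highest level, kcnip1b, fell from 9.21 and 8.35 FPKM to 6.17 and 6.20 (log2 change -0.44, adjusted p = 0.0362). Without DMSO replicate 3 the adjusted p was 0.0506 for kcnip3a. The calls were lost without DMSO replicate 1 and DMSO replicate 3 in turn for kcnip1b (adjusted p = 0.275 and 0.148) and kcnab1a (0.157 and 0.0897), and without BPC replicate 1 for kcnip1b (0.0553).

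Kv7 channels carry the M-current that damps repetitive firing, and 3 of 7 tested Kv7 genes fell. The gene kcnq5a was at 1.84 and 1.79 FPKM in DMSO, against 0.709 and 0.752 in BPC (log2 change -0.70, adjusted p = 0.0134), kcnq2a at 0.857 and 0.894 against 0.270 and 0.289 (-0.55, adjusted p = 0.0265, through the filter by DMSO alone), and kcnq3 at 2.12 and 2.24 against 1.36 and 1.23 (-0.47, adjusted p = 0.0434). Of the ERG and EAG group, kcnh7 fell from 2.20 and 2.62 FPKM to 1.02 and 1.17 (log2 change -0.70, adjusted p = 0.0169). The BK pore gene kcnma1a, for the large-conductance calcium-gated channel, fell from 6.23 and 6.04 FPKM to 3.26 and 3.84 (-0.65, SE 0.13, adjusted p = 0.0163).

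The small-conductance gene kcnn1a was at 7.89 and 7.53 FPKM in DMSO, against 5.18 and 6.02 in BPC and did not pass (adjusted p = 0.0580, or 0.0275 without BPC replicate 3). Its copy kcnn1b, which passed the filter only through DMSO, was at 1.18 and 1.41 against 0.357 and 0.318 and fell (0.0117). Of 11 silent Kv modifiers, subunits that form no channel alone, kcnv2a was the 1 that fell, and their median log2 change of -0.22 became 0.02 after quantile normalization. Without DMSO replicate 1 and DMSO replicate 3 in turn the calls were lost for kcnq5a (adjusted p = 0.106 and 0.0843), kcnq3 (0.212 and 0.246, and 0.0588 and 0.0693 without BPC replicate 1 and BPC replicate 3), kcnh7 (0.0737 and 0.127) and kcnma1a (0.117 and 0.0901). For kcnq2a the call was lost without BPC replicate 1 (0.0657).

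Inward rectifier genes were called lower about as often as all genes. Of 23 Kir genes 4 fell and 0 rose (8 and 1 at an unadjusted p under 0.05 by limma). At that unadjusted p, 5528 of all 19873 genes tested were lower and 2423 higher. The ATP-sensitive pore gene kcnj11, the Kir gene of highest level, was at 6.38 and 6.23 FPKM in DMSO, against 5.18 and 4.15 in BPC and did not pass (log2 change -0.37, adjusted p = 0.0907, or 0.0386 without BPC replicate 1). The glial and ion-transport gene kcnj10a fell from 1.83 and 2.08 FPKM to 0.975 and 0.839 (log2 change -0.63, SE 0.14, adjusted p = 0.0212). The G protein-gated gene kcnj3b fell from 2.09 and 1.904 FPKM to 0.787 and 1.05 (adjusted p = 0.0227). The vascular gene kcnj8 was at 1.39 and 0.911 FPKM against 0.941 and 0.658, with overlap (adjusted p = 0.310). Of 5 glial markers, 4 fell and 1 rose, against 17.5% and 7.06% of all genes. They summed to 498 and 487 FPKM in DMSO and 311 and 373 in BPC.

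The kcnj1a genes, which are 6 tandem copies of a gene for a secretory potassium channel of kidney and skin ionocytes, had unlike values. The level of kcnj1a.3 fell from 1.70 and 0.989 FPKM to 0.433 and 0.348 (log2 change -0.74, adjusted p = 0.0297), while kcnj1a.2 was at 0.942 and 0.825 FPKM in DMSO and 1.31 and 1.53 in BPC without passing (0.36, adjusted p = 0.0985). The kcnj1a.3 gene passed the filter only through DMSO, and kcnj1a.2 passed as higher after quantile normalization (0.0282) and median centring (0.0431). In kcnj1a.1, kcnj1a.4, kcnj1a.5 and kcnj1a.6 the groups overlapped, with log2 changes from -0.14 to -0.03. Near-identical copies share reads, so the split between them is uncertain. The kcnj1a.3 call was lost without BPC replicate 1 (adjusted p = 0.0633) and without BPC replicate 3 (0.0662). Of 10 ionocyte and kidney forms 2 fell, against 17.5% of all genes, and their median log2 change was -0.06, with a sign that turned after quantile normalization (0.15) and median centring (0.09). The 4 ionocyte markers all fell, from 119 and 113 FPKM summed to 56.0 and 60.9. In the other Kir genes, the kcnj10a and kcnj3b calls were lost without DMSO replicate 1 (adjusted p = 0.106 and 0.155) and DMSO replicate 3 (0.153 and 0.102), and that of kcnj3b without BPC replicate 1 (0.0546).

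Among the 10 leak channel genes tested, kcnk6 was the channel gene that rose. It was at 2.84 and 2.52 FPKM in DMSO, against 4.32 and 3.87 in BPC, with no overlap (2.68 ± 0.230 against 4.10 ± 0.323, SD, n = 2; adjusted p = 0.0452 for a log2 change of 0.47, SE 0.13). The rise no longer passed when BPC replicate 1 (adjusted p = 0.0944) or DMSO replicate 1 (0.170) or 3 (0.269) was left out, after conversion to TPM (0.136), with no filter (0.0861) and with a pseudocount of 0.01 FPKM (0.0511). In the other direction kcnk15 fell from 1.16 and 1.51 FPKM to 0.479 and 0.490 (adjusted p = 0.0222), after passing the filter only through DMSO, and kcnk10a from 1.17 and 1.12 to 0.550 and 0.479 (0.0357), with calls lost without BPC replicate 1 for kcnk15 (0.0530) and without each of the 4 libraries in turn for kcnk10a (0.0627 to 0.228). The K2P median of 0.00 was -0.15 after conversion to TPM, 0.23 after quantile normalization and 0.15 after median centring.

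Of the 30 nerve forms 27 were tested and 17 fell (63.0%, against 17.5% of all genes). Of the 27, 3 passed the filter only through DMSO. The 30 summed to 118 and 121 FPKM in DMSO and 58.3 and 72.0 in BPC, 54.5% of the DMSO mean. Of the 7 neuron markers 4 fell, set against the same 17.5%. The 7 summed to 712 and 707 FPKM in DMSO and 416 and 536 in BPC, 67.1% of their DMSO mean. Per 1000 FPKM of neuron markers there were 165.7 and 170.9 FPKM of nerve forms in DMSO and 139.9 and 134.3 in BPC. Per 1000 FPKM of photoreceptor markers there were 37.95 and 43.24 FPKM of retina forms in DMSO and 111.9 and 70.89 in BPC. Most of the photoreceptor marker sum in BPC was crx, the marker that did not pass. Per 1000 FPKM of their own markers, skeletal muscle forms were at 2.97 and 3.41 FPKM in DMSO and 2.42 and 2.66 in BPC, and heart forms at 284 and 239.9 and 78.4 and 95.0. The ratio to markers was thus lower in BPC for nerve, skeletal muscle and heart and higher for retina, with no overlap between the groups in these 4 cases. These ratios depend on which genes each list holds. Among neuron markers, mean FPKM went from 49.9 in DMSO to 19.4 in BPC for snap25b, and from 74.6 to 63.1 for elavl3. The retina forms include kcnj13, used by the retinal pigment epithelium, set here against photoreceptor markers. Skeletal muscle forms summed to 79.0% and muscle markers to 99.5% of their DMSO means. The part of the neuron markers in the nerve result was not tested.

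**Figure D4:**
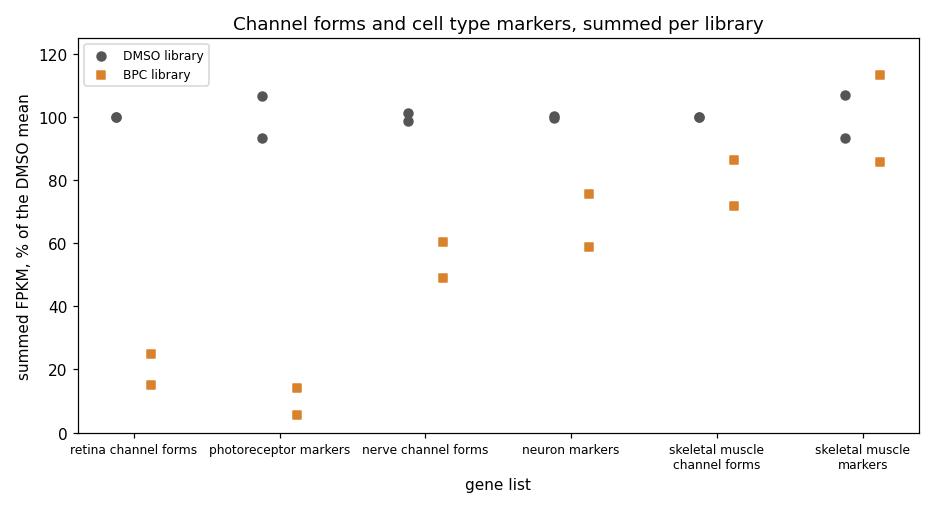
Points give the summed FPKM of a gene list in each library as a percentage of the DMSO mean (y axis) for channel forms and markers of retina, nerve and skeletal muscle (x axis), grey circles for DMSO and orange squares for BPC. Retina forms and photoreceptor markers lie lowest in BPC, at 20.1% and 9.87% on average, and skeletal muscle markers lie at 99.5%.

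The a and b copies of a gene often had unequal calls. Of 32 pairs in which both copies were tested, both copies were lower in 9, a single copy in 16 and neither in 7, and both changes were negative in 29. Over all 19873 genes tested, 17.5% were lower and 12379 changes were negative. Among pairs with both copies lower the widest gap on the log2(FPKM + 1) scale was in cacnb2, with -0.60 for cacnb2a and -1.48 for cacnb2b. The cacnb2a gene fell from 5.27 and 5.18 FPKM to 2.83 and 3.42. By the authors' log2 ratio of mean FPKM the gap was wider in kcna1 (-1.14 for kcna1a and -3.18 for kcna1b) than in cacnb2 (-0.74 and -2.22). The fall of cacnb2a no longer passed without DMSO replicate 1 (adjusted p = 0.144) and DMSO replicate 3 (0.122). In scn8a the log2 changes of FPKM + 1 were -0.73 and -0.76, at levels that differed several-fold. The authors' log2 ratios of mean FPKM were less alike, at -0.80 for scn8aa and -1.03 for scn8ab. The pair kcnk10 had copies of opposite sign, with kcnk10b at 0.821 and 0.751 FPKM in DMSO and 1.43 and 0.922 in BPC (log2 change 0.27, adjusted p = 0.247). A call in one copy and not the other does not show that they differ, and the differences were not tested.

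**Figure D5:**
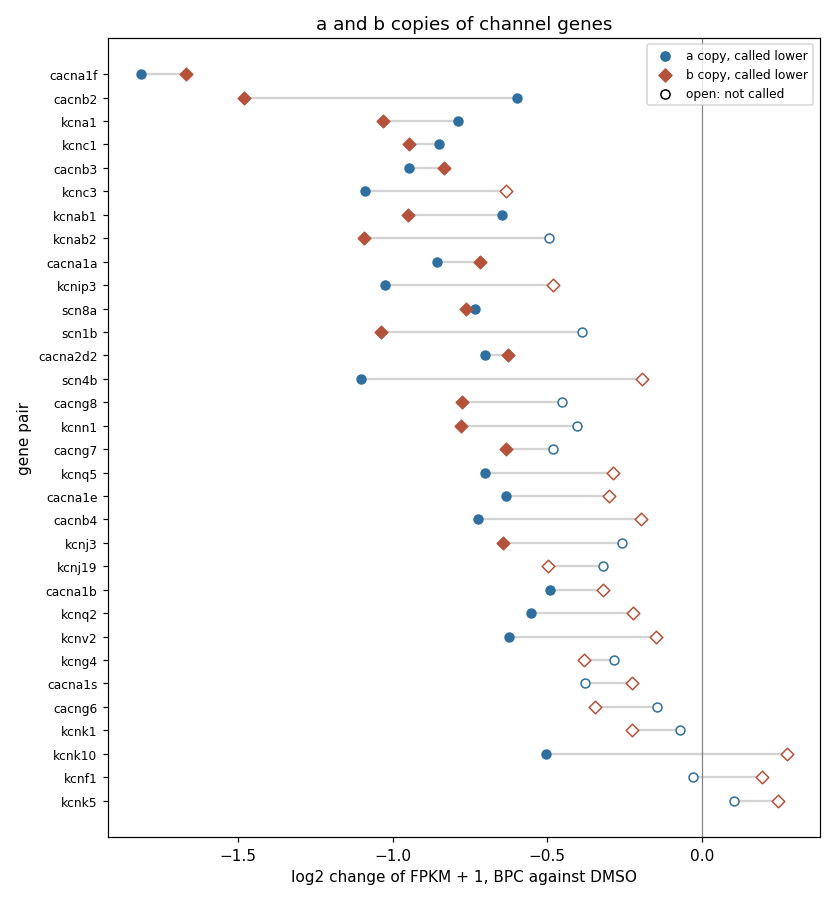
Each row is a pair of a and b copies (y axis) with the log2 change of FPKM + 1 between BPC and DMSO of each copy (x axis), circles for a and diamonds for b, filled where the copy was lower at the adjusted threshold. Of 32 pairs, 29 have both copies left of 0, and kcnk10, kcnf1 and kcnk5 do not.

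Genes that work with these channels were read from a list of 72, of which 57 were tested, and 30 were lower and 2 higher, against 17.5% and 7.06% of all genes. Of the 30, 7 passed the filter only through DMSO. The cyclic nucleotide-gated channel genes, a family that includes the channels of the photoreceptor light response, were lower in 8 of 10. Of these 8, 6 (cnga1a, cnga1b, cnga3b, cngb1a, cngb1b and cngb3.1) passed the filter only through DMSO. Neither cnga2b (log2 change 0.07, adjusted p = 0.726 by limma) nor cnga4 (-0.05, adjusted p = 0.796) passed the threshold. The cone subunit gene cnga3a was at 7.49 and 6.62 FPKM in DMSO, against 0.491 and 0.589 in BPC (log2 change -2.39, SE 0.13, adjusted p = 0.000611). Its copy cnga3b was at 1.49 and 1.64 FPKM in DMSO and was listed at 0 in both BPC libraries, and cngb1a was at 4.30 and 3.22 against 0.159 and 0. Genes that gather sodium channels at axons or shape their inactivation were lower in 6 of 11, among them fgf11b, from 2.37 and 2.38 FPKM to 0.555 and 0.549 (adjusted p = 0.00401). Kv clustering and auxiliary genes were lower in 8 of 14 and higher in 2, lgi1b and cntnap2b, which are named here after their values were seen. The muscle excitation-contraction genes were lower in 3 of 12.

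The authors' deposited table rests on the same 4 libraries. Its ratio equals that of the mean FPKM values in all 22583 genes above 0 in the 4 libraries, so its direction is no separate evidence. It marked 47 of the 183 channel genes as significant and down and 0 as up, against 6.44% and 1.94% of all 27472 genes. Of these 47, 44 were lower by limma too, and the other 3, kcnj14, scn1laa and scn4aa, were under the filter used here. The other 21 genes lower by limma were not marked. Every gene the authors' deposited table marked had an absolute log2 ratio of at least 1 and a q-value under 0.05. Whatever their ratio, 59 of the 183 had such a q-value. The share of all genes with such a q-value was not computed, so this count has no background. For kcnk6 the authors' deposited table has a ratio of 1.53 and a q-value of 0.000991, without the mark.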

How the data were processed

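RNA of 4 zebrafish libraries, 2 DMSO and 2 BPC, was analysed. Per the labels' protocols, polyadenylated RNA was made into paired-end libraries with a dUTP-marked second strand. Tools named in the submitters' processing notes are StringTie 1.3.4d, HISAT2 2.0.4 and cutadapt 1.9, besides edgeR and DESeq2, and what each did is not said there. With build, annotation and strand use in counting not given in the sources used here, reads of a gene and of an overlapping or antisense gene cannot be told apart. The authors deposited FPKM values for 27472 genes, per the file headers. The deposited comparison of BPC with DMSO, by the authors, gives the ratio of mean FPKM values, its log2, a p-value and a q-value. Depth per library is unknown: FPKM gives no read totals, and low values showed no common step from which reads could be recovered.

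Values were taken as log2(FPKM + 1) and fitted by group with limma 3.58.1 (R 4.3.3), with a trend and no other term, for the 19873 genes that reached 0.5 FPKM in 2 or more libraries. P-values were two-sided and adjusted by the Benjamini-Hochberg method over all genes tested, with a threshold of 0.05. Fold changes on this scale are understated for low genes. A gene listed at 0 may be a failed estimate, and no fold is given for it. The script was tested on simulated data. Families, tissue forms, partner genes and cell type markers came from written lists. The members and these lists were chosen with earlier results of these data known. By rule the text names the 15 largest changes in each direction, the highest gene of each family, all tissue forms, up to 4 partner genes with the smallest p and up to 2 markers of a list. Other members and markers were named after their values were seen. Of the 183 channel genes 181 had their ID in the reference table of names, 5 symbols were shared by 16 of them, and no sequence or coordinate was used.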

Additional observations from a re-analysis of the deposited data

How the results depend on the processing

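Every one of the 65 lower channel genes kept a negative change in each of the 12 alternatives that tested it, and 33 kept their call in all alternatives that use every library. With no filter on low values 42 channel genes and 11 nerve forms were called lower. Calls in either direction were 16 among calcium, 18 among potassium and 17 among partner genes. Over all genes 748 were higher and 2020 lower, of more genes tested. Quantile normalization gave 35 lower and 3 higher channel genes, 15 calls among calcium, 16 among potassium, 11 nerve forms, 19 partner genes and 2111 lower genes overall. TPM conversion gave 48 potassium calls and 0 higher channel genes, with 776 higher and 7446 lower genes overall. Median centring gave 2 higher channel genes, 20 partner genes called in either direction, and 2441 higher and 1997 lower among all genes. The median log2 change of channel genes was -0.80 with a pseudocount of 0.1 FPKM, -0.87 with one of 0.01 FPKM and -0.26 after quantile normalization. A pseudocount of 0.01 FPKM and no filter each left 0 higher channel genes. Beyond the change in genes tested, the causes were not tested.

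Leaving out each library in turn gave 16 to 72 lower and 0 to 2 higher channel genes, 3 to 8 calls among sodium, 7 to 31 among calcium, 6 to 35 among potassium, 4 to 20 nerve forms, 3 to 7 retina forms, 0 to 4 skeletal muscle forms and 4 to 36 partner genes, with a median log2 change of -0.56 to -0.41. Over all genes it gave 329 to 2097 higher and 675 to 4146 lower genes. The lone library of a group is then assumed to vary like the other group. Only 5 retina forms were tested without a DMSO library. The replicate numbers share only a number: the differences between replicates 1 and 3 in the 2 groups correlated at 0.0081 across genes. A replicate block gave 63 lower and 0 higher channel genes, and 61 of the 65 stayed lower. It ended the calls of kcnk6, cacna1ba, kcnip1b, kcnq3 and kcnk10a, and kcna7 (adjusted p = 0.0373) and kcnc3b (0.0258) passed as lower. With no read totals, precision at levels near 1 FPKM cannot be computed, and 2 libraries a group limit every call.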

Other observations

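The 38 channel genes that were not tested did not exceed 1.07 FPKM in any library. In 21 of them both BPC libraries lay below both DMSO libraries, and in 0 they lay above. Over all genes in the table, tested or not, these shares were 39.5% and 19.0%. The shares among untested genes alone were not computed. Among these the leak channel gene kcnk3a, for an acid-sensitive resting conductance, was at 1.07 and 0.403 FPKM in DMSO, against 0.236 and 0.0517 in BPC. The muscle sodium pore gene scn4aa was at 0.356 and 0.221 FPKM in DMSO, 0.0266 in BPC replicate 1 and 0 in BPC replicate 3, and the ERG-type gene kcnh6b was at 0.301 and 0.221 FPKM in DMSO, 0.0390 in BPC replicate 1 and 0 in BPC replicate 3. The Kir gene kcnj14 was at 0.296 and 0.168 FPKM in DMSO, 0 in BPC replicate 1 and 0.0201 in BPC replicate 3. These genes were named after their values were seen. Of the 183 channel genes, 14 were listed at 0 in at least 1 library.

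In 5 tested genes other than kcnk6 both BPC libraries lay above both DMSO libraries, without passing the adjusted threshold by limma. Over all tested genes 23.0% lay above in this way. These 5 were named after their values were seen. The calcium-gated gene kcnn4, of blood and epithelial cells in mammals, was at 0.267 and 0.532 FPKM in DMSO, against 0.748 and 0.676 in BPC (adjusted p = 0.189). The leak channel gene kcnk5b, known in zebrafish for control of fin size, was at 1.42 and 1.63 FPKM against 2.10 and 1.88 (adjusted p = 0.225). The others were kcnk10b (0.247), kcnj1a.2 (0.0985) and cacng1a (0.266), and cacng1a passed without BPC replicate 3 (0.0267). After quantile normalization kcnn4 (0.0418) and kcnj1a.2 (0.0282) passed as higher, and kcnj1a.2 also did after median centring (0.0431).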
